A study of Homo sapiens with 18 samples.

Results

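The genes described here are long noncoding RNA genes that carry small nucleolar RNAs (snoRNAs) within them. They were taken from a poly(A) RNA-seq count table as every gene whose symbol is SNHG followed by a number, together with GAS5, ZFAS1, EPB41L4A-AS1, CYTOR and DANCR. This gave 33 of the 47021 genes in the table. Of these, 30 were among the 14732 genes with enough counts to be tested.

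The libraries are labelled as DLD1, an established human colorectal adenocarcinoma line. In the order used below, the groups were cells given ZNF692 guide 1 (sgZ1) and ZNF692 guide 3 (sgZ3), both labelled ZNF692 knockout, and cells given a control guide (sgC), labelled wild type, with 3 libraries per guide. The cells of all 3 groups carried a lentivirus and were kept as stable lines after puromycin selection at 10 µg/ml. Whether a line was a pool or a single clone is not given in the sources used here. Nor do they say whether the 3 libraries of a guide were grown separately, so every p-value below speaks of the scatter among these libraries, part of which may be technical. ZNF692 encodes a zinc-finger protein.

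Most human snoRNAs are cut out of the introns of longer transcripts. Box C/D snoRNAs guide ribose methylation of ribosomal RNA, box H/ACA snoRNAs guide pseudouridylation, and the related small Cajal body RNAs (scaRNAs) guide the same changes in spliceosomal RNAs. In the noncoding hosts the spliced exons carry no long reading frame. Several of them, GAS5 being the textbook case, begin with a pyrimidine tract like that of ribosomal protein mRNAs, are bound by ribosomes and are then removed by nonsense-mediated decay, the pathway that destroys transcripts with early stop codons. A poly(A) library measures the spliced host, not the mature snoRNA, so nothing below is a snoRNA level.

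ZNF692 mRNA stood at 9.64, 9.82 and 11.5 CPM (counts scaled by library size, with TMM factors, the unit of all levels below) in the sgZ1 libraries and at 7.92, 8.08 and 6.29 CPM in the sgZ3 libraries, against 7.01, 6.32 and 6.18 CPM in the sgC libraries. The targeted mRNA was therefore not lower with either guide. Small insertions or deletions need not lower an mRNA, and the level does not check the labels. All directions below are between libraries labelled sgZ1, sgZ3 and sgC. Totals ran from 16044224 to 24535642 counts per library. The 12 colorectal epithelial markers examined, such as EPCAM (959 to 1550 CPM) and KRT8, were detected in every library, CDX1 at no more than 0.868 CPM. Some libraries stood apart. A set of 87 genes exceeded 2 CPM in each sgZ1 library and stayed under 0.5 CPM in each of the 6 libraries of the other guides, and 0 genes did the same for sgZ3 or for sgC. MSH6, which encodes a mismatch-repair protein that DLD1 is known to lack, stood at 67.3 to 74.8 CPM in sgZ1, 4.40 to 8.53 CPM in sgZ3 and 6.53 to 9.48 CPM in sgC. Whether the sgZ1 libraries come from 1 clone or from other cells than the rest cannot be told from the labels, so differences that include sgZ1 cannot be told apart from a difference between lines. The mesenchymal genes VIM and SPARC stood at 22.9 and 64.3 CPM in sgZ1 replicate 2 and at 21.2 and 66.8 CPM in sgZ3 replicate 3, against at most 1.22 and 5.91 CPM in the other 7 libraries. The summed level of 15 mesenchymal and fibroblast markers was 41.7, 149 and 47.8 CPM in sgZ1, 37.4, 42.2 and 156 CPM in sgZ3 and 33.9 to 35.9 CPM in sgC. The defining fibroblast genes COL1A2 and FAP were at 0 in 8 of the 9 libraries, while COL1A1 stood at 12.2 CPM in sgZ1 replicate 2 and 15.2 CPM in sgZ3 replicate 3, against at most 1.40 CPM in the other 7. FN1 and PDGFRB were also highest in those 2 libraries. The counts below are therefore also given for 7 libraries, without sgZ1 replicate 2 and sgZ3 replicate 3.

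The hosts differed widely in length and level. Exons summed to between 278 bases (SNHG25) and 43324 bases (SNHG14) in the GENCODE 29 annotation of GRCh38, which holds all 33. Per kilobase of exon, SNHG29, host of SNORD49A, SNORD49B and SNORD65, had the highest level, 68.9 CPM per kb in sgZ1, 80.1 in sgZ3 and 66.2 in sgC. SNHG19, with 342 bases of exon, had 52.0, 71.1 and 36.3 CPM per kb in the same groups, and SNHG6 had 54.3, 51.3 and 39.2 CPM per kb. SNHG8 lay at 36.8 to 37.2 CPM per kb and ZFAS1 at 31.8 to 34.8 CPM per kb. At the other end of the tested genes, SNHG14 reached no more than 0.0383 CPM per kb in any group. The other 3 members were left untested for low counts. SNHG27 and SNHG28 had 0 counts in all 9 libraries, which allows up to 0.0165 CPM over all libraries together (3 counts, counting error only), and SNHG31 had 1 to 3 counts in each ZNF692 library and 0 to 2 in each sgC library. RefSeq places at least 1 small RNA within the span of 31 of the 33 genes and none in CYTOR or SNHG27.

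Start-site sequences are printed for the 6 hosts with the highest rises among those in the RefSeq promoter table and for the 8 most abundant hosts that were not called. They show whether a pyrimidine tract stands at 1 annotated start of each gene, and transcripts can begin elsewhere. For GAS5 and SNHG29, for example, the RefSeq start used here lies at another base than the gene's outer end in GENCODE 29. Each line gives 25 bases before and 25 from the start annotated by RefSeq on GRCh38.p14, 5′ to 3′ on the gene's strand, so that base 26 is the annotated start. Capitals mark a run of at least 5 pyrimidines that begins with C within 5 bases of that start. The first 6 hosts rose and the other 8 were not called.
SNHG10 (chr14:95534848-95534897, minus strand): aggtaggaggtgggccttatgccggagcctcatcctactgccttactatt
DANCR (chr4:52712369-52712418, plus strand): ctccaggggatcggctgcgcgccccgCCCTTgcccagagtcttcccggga
SNHG30 (chr17:35568089-35568138, plus strand): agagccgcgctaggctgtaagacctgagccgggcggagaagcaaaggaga
SNHG21 (chr15:82750539-82750588, plus strand): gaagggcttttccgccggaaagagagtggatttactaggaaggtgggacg
SNHG19 (chr16:2155334-2155383, minus strand): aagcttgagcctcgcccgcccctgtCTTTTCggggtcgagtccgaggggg
SNHG3 (chr1:28505918-28505967, plus strand): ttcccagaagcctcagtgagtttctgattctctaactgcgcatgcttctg
SNHG29 (chr17:16438962-16439011, plus strand): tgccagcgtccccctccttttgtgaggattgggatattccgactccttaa
ZFAS1 (chr20:49278617-49278666, plus strand): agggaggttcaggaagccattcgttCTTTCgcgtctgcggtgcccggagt
GAS5 (chr1:173869021-173869070, minus strand): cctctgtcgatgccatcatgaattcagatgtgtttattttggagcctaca
SNHG1 (chr11:62855861-62855910, minus strand): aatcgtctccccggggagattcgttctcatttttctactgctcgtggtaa
SNHG32 (chr6:31834891-31834940, plus strand): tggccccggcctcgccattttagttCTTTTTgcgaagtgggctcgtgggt
SNHG5 (chr6:85678709-85678758, minus strand): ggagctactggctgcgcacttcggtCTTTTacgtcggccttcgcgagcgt
SNHG8 (chr4:118278737-118278786, plus strand): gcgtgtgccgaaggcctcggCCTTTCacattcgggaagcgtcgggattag
EPB41L4A-AS1 (chr5:112160501-112160550, plus strand): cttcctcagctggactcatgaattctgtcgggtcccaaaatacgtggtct

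Of the 30 tested hosts 26 matched the RefSeq promoter table, and SNHG6, SNHG9, SNHG15 and SNHG25 did not. A C at the annotated start with at least 5 pyrimidines in a row stood in 7 of the 26 (26.9%), against 4.07% of 35116 promoters in the table. The tract stood in 2 of 10 matched hosts called higher over both guides (20.0%) and in 5 of 16 not called (31.2%). With the C allowed within 5 bases of the start the shares were 46.2% of the 26 hosts and 21.1% of all promoters, and the tract stood in 5 of 10 called hosts against 7 of 16 not called. The order of called and uncalled hosts thus differed between the rules, and the difference was not tested. Searched on both strands of the 300-base windows, the E-box CACGTG stood in SNHG30 and SNHG7 (7.69% of hosts, 7.26% of all) and the ETS-type core CCGGAAG in SNHG26 and SNHG20 (7.69% and 10.3%). A match or its absence describes only the letters in these windows.

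In the mean of sgZ1 and sgZ3 against sgC, 14 of 30 tested hosts were higher and 0 lower, at a false discovery rate of 0.05 over all 14732 genes (edgeR quasi-likelihood test, Benjamini-Hochberg adjusted). The background was broad, since 33.2% of all genes were called, 18.6% higher and 14.6% lower. DANCR, SNHG10, SNHG30, SNHG21 and SNHG9 rose more than 2-fold. The most abundant hosts, SNHG29, ZFAS1 and GAS5, were not called. The median log2 fold change was 0.43 over the 30 hosts and 0.01 over all tested genes. In 12 hosts every sgZ1 and sgZ3 library lay above every sgC library, as in 11.9% of all genes, and in 0 hosts did every library lie below, as in 11.5% of all genes.

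The count of 0 lower hosts was also 0 at an unadjusted p under 0.05 in edgeR and 0 with DESeq2. That fit called 13 hosts and 19.6% of all genes higher. The call of 14 rested partly on 2 control libraries, with 7 called without sgC replicate 1 and 9 without sgC replicate 3. Over all genes the share called higher fell as well, to 8.96% and 9.54% in those fits. In 7 libraries, 15 hosts were higher and 2 lower, EPB41L4A-AS1 and SNHG14, where 3442 of 14923 genes were higher and 3967 lower.

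Against sgC, 8 hosts were higher with sgZ1 and 0 lower, where 25.8% of all genes were called (15.5% higher and 10.3% lower). With sgZ3, 14 hosts were higher and 0 lower, where 36.3% of all genes were called (19.2% higher and 17.1% lower). At an unadjusted p under 0.05 edgeR had 0 lower hosts with sgZ1 and 1 with sgZ3, SNHG7, and DESeq2 called 0 lower with either guide. The 8 hosts called with sgZ1, which were SNHG9, SNHG10, SNHG30, SNHG21, DANCR, SNHG16, SNHG3 and SNHG4, were all called with sgZ3 too. The 6 others with sgZ3 were SNHG15, SNHG17, SNHG18, SNHG19, SNHG25 and SNHG26. Both comparisons use the same 3 sgC libraries. All sgZ1 libraries lay above all sgC libraries in 16 hosts, as in 23.4% of all genes, and all sgZ3 libraries did in 15, as in 25.8% of all genes. In 0 hosts did all libraries of sgZ1 or of sgZ3 lie below all sgC libraries, as 21.0% and 26.6% of all genes did. The sgZ1 count was 13 without sgZ3 replicate 3, where 18.8% of all genes were higher. The sgZ3 count was 8 without sgZ3 replicate 2 and 9 without sgC replicate 3, where 12.2% and 11.8% of all genes were higher. In 7 libraries the counts were 12 higher and 2 lower for sgZ1 (EPB41L4A-AS1 and GAS5) and 18 higher and 1 lower for sgZ3 (SNHG14). Of 14923 genes tested there, 3289 were higher and 2605 lower for sgZ1, and 3570 higher and 4676 lower for sgZ3.

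**Figure D1:**
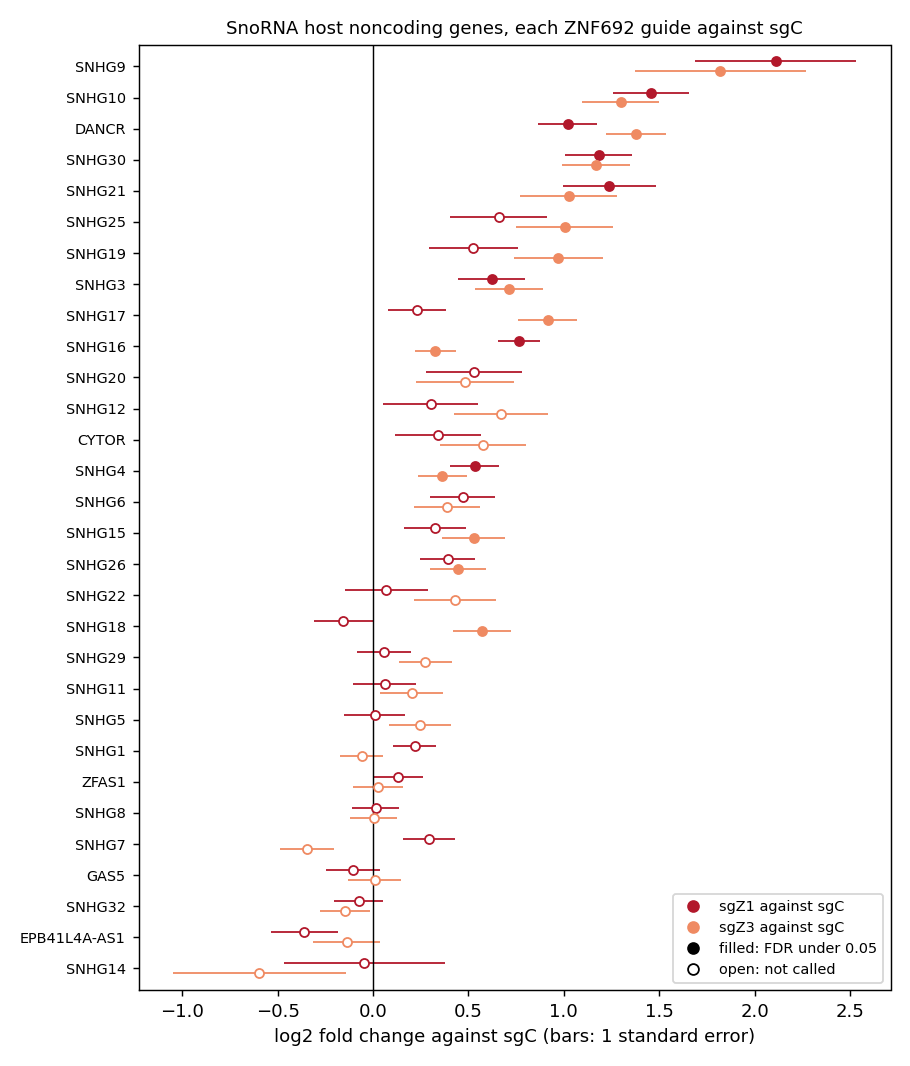
Log2 fold change of the 30 tested hosts for sgZ1 and for sgZ3 against sgC, with bars of 1 standard error and filled points for an edgeR adjusted p under 0.05. The 5 hosts at the top, from SNHG9 to SNHG21, lie above 1 for both guides, SNHG7, SNHG18, SNHG1 and GAS5 lie on opposite sides of 0 for the guides, and no filled point lies below 0.

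Among 12 tested hosts of box C/D snoRNAs only, 5 were higher (41.7%) and 0 lower over both guides, with a median log2 fold change of 0.19. Of all genes 18.6% were higher and 14.6% lower. SNHG30, listed as LINC02001 in GENCODE 29 and host of SNORD7, lies on chromosome 17 from 35568109 to 35574843. It stood at 10.8, 15 and 11.4 CPM in sgZ1 and 14.7, 12.3 and 9.95 CPM in sgZ3, against 4.92, 5.89 and 5.59 CPM in sgC. The lowest ZNF692 library was thus well above the highest control library. The log2 fold change was 1.18 with sgZ1 (SE 0.18) and 1.17 with sgZ3 (SE 0.18), and 1.18 over both (SE 0.16, edgeR adjusted p = 0.00042). SNHG19, the short host of SNORD60, stood at 15.7, 22.7 and 14.8 CPM in sgZ1 and 26.2, 29.3 and 17.3 CPM in sgZ3, against 13.4, 14.7 and 9.08 CPM in sgC. The groups did not overlap, but sgZ1 replicate 3 was within 0.2 CPM of sgC replicate 2. Over both guides the log2 fold change was 0.75 (SE 0.21, adjusted p = 0.017), and the call was lost without sgC replicate 1 (edgeR adjusted p = 0.060) or sgC replicate 3 (0.099).

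SNHG16, host of the 3 SNORD1 copies and well studied in colorectal tumours, stood at 45.3, 51.3 and 50.6 CPM in sgZ1 and 41.3, 35.4 and 32.0 CPM in sgZ3, against 30.0, 28 and 28.7 CPM in sgC. The control libraries were tight, and both ZNF692 groups lay above them, sgZ1 the further. Its log2 fold change over both guides was 0.55 (SE 0.096, edgeR adjusted p = 0.0018). SNHG26, host of SNORD93, stood at 4.19, 4.83 and 4.14 CPM in sgZ1 and 4.40, 4.72 and 4.57 CPM in sgZ3, against 3.46, 3.53 and 3.07 CPM in sgC. The rise was small (0.42, SE 0.13, edgeR adjusted p = 0.027), without overlap of the groups, and the call was lost in 8 of 17 alternative settings. SNHG6, host of SNORD87, stood at 56.4, 85.5 and 61.1 CPM in sgZ1 and 68.4, 68.5 and 55.2 CPM in sgZ3, against 46.2, 59.5 and 41.1 CPM in sgC. Here the groups overlapped, the call over both guides was marginal (0.43, SE 0.15, edgeR adjusted p = 0.047) and neither guide alone was called (adjusted p = 0.063 with sgZ1 and 0.096 with sgZ3). It was lost in 8 of 17 settings.

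The other box C/D hosts were not called over both guides. SNHG29 stood at 225, 320 and 232 CPM in sgZ1 and 327, 298 and 278 CPM in sgZ3, against 258, 276 and 213 CPM in sgC. Its fold change over both guides was 1.12, with a 95% interval of 0.91 to 1.38 (from the standard error and 6 residual degrees of freedom, as for the intervals below). ZFAS1, a host of 3 SNORD12 copies known for its rise in several carcinomas, stood at 68.6, 90.5 and 74.9 CPM in sgZ1 and 78.6, 76.8 and 62.6 CPM in sgZ3, against 73.4, 78.0 and 62.8 CPM in sgC. The groups lay on top of each other, with a fold of 1.06 (0.87 to 1.28). SNHG1, host of 8 box C/D snoRNAs and, in RefSeq, 1 unclassified small RNA, averaged 63.5 ± 4.72 CPM in sgZ1 and 52.4 ± 7.56 CPM in sgZ3, against 54.6 ± 1.58 CPM in sgC (SD, n = 3 each), a fold of 1.06 (0.89 to 1.25). SNHG32, called C6orf48 and protein coding in GENCODE 29, averaged 47.8 ± 2.26, 45.6 ± 8.49 and 50.4 ± 4.07 CPM in sgZ1, sgZ3 and sgC, a fold of 0.93 (0.77 to 1.12). SNHG5, host of the paired SNORD50A and SNORD50B, averaged 40.0 ± 6.04, 47.2 ± 10.0 and 39.8 ± 4.55 CPM in the same order, a fold of 1.09 (0.86 to 1.39). Over both guides these intervals leave out a 1.5-fold rise for the 5 hosts, but with sgZ3 alone the upper limits were 1.53 for SNHG29 and 1.56 for SNHG5. In 7 libraries both were called higher with sgZ3, SNHG29 by 0.28 (edgeR adjusted p = 0.010) and SNHG5 by 0.37 (adjusted p = 0.0019). With length and GC offsets SNHG32 was called lower over both guides (log2 fold change -0.31, edgeR adjusted p = 0.0068).

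SNHG14 is the long imprinted transcript that carries the SNORD115 and SNORD116 clusters and is chiefly known from neurons. RefSeq lists 83 box C/D snoRNAs in it. It stood at 1.58, 2.21 and 0.985 CPM in sgZ1 and 0.812, 0.380 and 2.03 CPM in sgZ3, against 1.51, 1.77 and 1.71 CPM in sgC. The controls agreed closely and the ZNF692 libraries did not, with the highest value of each ZNF692 group in the library that also held VIM and SPARC. Over both guides its log2 fold change was -0.32 (SE 0.38, edgeR adjusted p = 0.53). Without sgZ3 replicate 3 it was -0.78 (edgeR adjusted p = 0.048), and in 7 libraries -0.97 over both guides (adjusted p = 0.0033) and -1.57 for sgZ3 (adjusted p = 0.00054). SNHG14 shares exon sequence with SNRPN on its own strand and with UBE3A on the other, so its counts are uncertain.

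Among 10 tested hosts of box H/ACA snoRNAs only, 6 were higher (60.0%) and 0 lower over both guides, with a median log2 fold change of 0.44. Of all genes 18.6% were higher and 14.6% lower. DANCR, named for its role in holding back differentiation of human epidermal progenitors and host of SNORA26, lies on chromosome 4 from 52712404 to 52720351. It stood at 52.2, 66.1 and 61.9 CPM in sgZ1 and 87.1, 84.8 and 59.1 CPM in sgZ3, against 29.1, 33.3 and 26.5 CPM in sgC. Every ZNF692 library was above 50 CPM and every control below 34, the largest shift in CPM among the 14 called hosts. The log2 fold change was 1.02 with sgZ1 (SE 0.15, edgeR adjusted p = 0.00051), 1.38 with sgZ3 (SE 0.16, adjusted p = 0.00018) and 1.2 over both (SE 0.14, adjusted p = 0.00022). SNHG9, host of SNORA78, had the highest fold change but the fewest counts, 10 to 31 in each ZNF692 library and 3 to 8 in each control. Its level was 1.16, 1.27 and 0.690 CPM in sgZ1 and 1.02, 1.08 and 0.507 CPM in sgZ3, against 0.195, 0.161 and 0.341 CPM in sgC. The groups did not overlap, and the log2 fold change over both guides was 1.97 (SE 0.39, edgeR adjusted p = 0.0034).

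SNHG3 hosts SNORA73A and SNORA73B, box H/ACA RNAs that act in cleavage of the ribosomal RNA precursor rather than in its modification. It stood at 41.6, 44.0 and 44.0 CPM in sgZ1 and 47.8, 58.8 and 31.6 CPM in sgZ3, against 25.9, 31.1 and 27.2 CPM in sgC. All ZNF692 libraries were above all controls, sgZ3 replicate 3 by 0.5 CPM, and the log2 fold change over both guides was 0.67 (SE 0.16, edgeR adjusted p = 0.0080). The call was lost without sgC replicate 1 (adjusted p = 0.056). With sgZ1 alone the call was lost in 3 of 17 settings, and with sgZ3 alone in 1. SNHG4, host of SNORA74A and SNORA74D, stood at 32.0, 37.9 and 32.8 CPM in sgZ1 and 36.9, 26.9 and 27.7 CPM in sgZ3, against 22.8, 24.4 and 23.8 CPM in sgC. The groups did not overlap and the rise was 0.45 over both guides (SE 0.11, edgeR adjusted p = 0.011). It was lost without sgC replicate 1 (0.067) or sgC replicate 3 (0.052). The SNHG4 call with sgZ3 alone was lost in 8 of 17 settings, and that with sgZ1 alone in 1. SNHG15, host of SNORA9 and known for its induction under cellular stress, stood at 18.6, 22.5 and 22.4 CPM in sgZ1 and 27.7, 27.8 and 17.7 CPM in sgZ3, against 16.1, 18.3 and 16.3 CPM in sgC. Its groups overlapped, its rise was 0.43 (SE 0.14, edgeR adjusted p = 0.038), and the call was lost in 10 of 17 settings, more than for any other host called over both guides.

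Of the box H/ACA hosts not called over both guides, SNHG8, host of SNORA24, was the flattest member, at 34.3 ± 3.94 CPM in sgZ1, 34.1 ± 3.84 CPM in sgZ3 and 34.0 ± 3.37 CPM in sgC (SD, n = 3 each), a fold of 1.01 (95% interval 0.84 to 1.2). SNHG11, host of SNORA60 and SNORA71E, averaged 5.20 ± 0.837, 5.77 ± 0.646 and 5.00 ± 0.50 CPM in the same order. EPB41L4A-AS1, host of SNORA13, stood at 25.2, 34.5 and 26.8 CPM in sgZ1 and 38.2, 38.7 and 24.2 CPM in sgZ3, against 37.5, 40.2 and 33.5 CPM in sgC. Its lower values lay in sgZ1 replicates 1 and 3 and in sgZ3 replicate 3. Its log2 fold change was -0.25 over both guides (SE 0.15, edgeR adjusted p = 0.22) and -0.36 with sgZ1 (adjusted p = 0.15). The sgZ1 difference passed without sgZ3 replicate 3 (-0.36, edgeR adjusted p = 0.037) and without sgZ1 replicate 2 (-0.52, adjusted p = 0.050), and in 7 libraries it was -0.52 (adjusted p = 0.00011).

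Of the 4 tested members that host a scaRNA, 2 were higher over both guides and 0 lower, with a median log2 fold change of 0.82. The shares of all genes were 18.6% higher and 14.6% lower. SNHG10, host of SCARNA13, lies on chromosome 14 from 95532297 to 95534872 on the minus strand. It stood at 10.5, 15.3 and 12.2 CPM in sgZ1 and 12.4, 12.5 and 9.29 CPM in sgZ3, against 3.8, 5.89 and 4.22 CPM in sgC. The 2 guides gave near-equal values, with a log2 fold change of 1.46 for sgZ1 (SE 0.20) and 1.30 for sgZ3 (SE 0.20), and 1.38 over both (SE 0.18, edgeR adjusted p = 0.00035). SNHG21, host of SCARNA15, stood at 2.28, 1.68 and 2.07 CPM in sgZ1 and 1.83, 1.95 and 1.42 CPM in sgZ3, against 1.07, 0.696 and 0.768 CPM in sgC. It too was higher in 6 of 6 ZNF692 libraries, by 1.13 over both guides (SE 0.22, edgeR adjusted p = 0.0031). SNHG20, host of SCARNA16, averaged 3.94 ± 0.566 CPM in sgZ1 and 3.81 ± 1.49 CPM in sgZ3, against 2.73 ± 0.230 CPM in sgC (SD, n = 3 each). Its log2 fold change of 0.51 (SE 0.22, edgeR adjusted p = 0.10) did not pass, and sgZ3 replicate 3, at 2.33 CPM, lay below all controls. Without that library it was 0.64 (adjusted p = 0.0088). SNHG22, host of SCARNA17, averaged 1.78 ± 0.123, 2.26 ± 0.560 and 1.69 ± 0.177 CPM in sgZ1, sgZ3 and sgC and was not called (edgeR adjusted p = 0.32).

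Of the 3 members that host snoRNAs of both classes, 1 was higher over both guides and 0 lower, where 18.6% of all genes were higher and 14.6% lower. SNHG25, a host of 278 exon bases carrying SNORD104 and SNORA50C, stood at 5.22, 6.75 and 5.27 CPM in sgZ1 and 8.59, 8.95 and 4.52 CPM in sgZ3, against 3.8, 4.34 and 2.86 CPM in sgC. It rose by 0.83 over both guides (SE 0.22, edgeR adjusted p = 0.015) without overlap, and the call was lost without sgC replicate 1 (0.062) or sgC replicate 3 (0.092). GAS5, known as a decoy for the glucocorticoid receptor, hosts 10 box C/D snoRNAs and SNORA103. It stood at 56.9, 82.1 and 68.2 CPM in sgZ1 and 79.4, 79.2 and 65.7 CPM in sgZ3, against 76.9, 81.7 and 64.4 CPM in sgC. The groups overlapped throughout, with a fold of 0.97 over both guides (95% interval 0.79 to 1.19). In 7 libraries GAS5 was called lower with sgZ1 (log2 fold change -0.26, edgeR adjusted p = 0.037). SNHG12, host of 3 box H/ACA snoRNAs and SNORD99, averaged 1.11 ± 0.111 CPM in sgZ1 and 1.42 ± 0.274 CPM in sgZ3, against 0.899 ± 0.170 CPM in sgC (SD, n = 3 each), and its rise of 0.49 did not pass (edgeR adjusted p = 0.10). CYTOR, the cytoskeleton-regulating RNA with no small RNA in its span, averaged 2.97 ± 0.126 CPM in sgZ1 and 3.51 ± 0.597 CPM in sgZ3, against 2.32 ± 0.717 CPM in sgC. Its log2 fold change of 0.46 did not pass (edgeR adjusted p = 0.090). Without sgC replicate 3 it was 0.73 (adjusted p = 0.035).

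**Figure D2:**
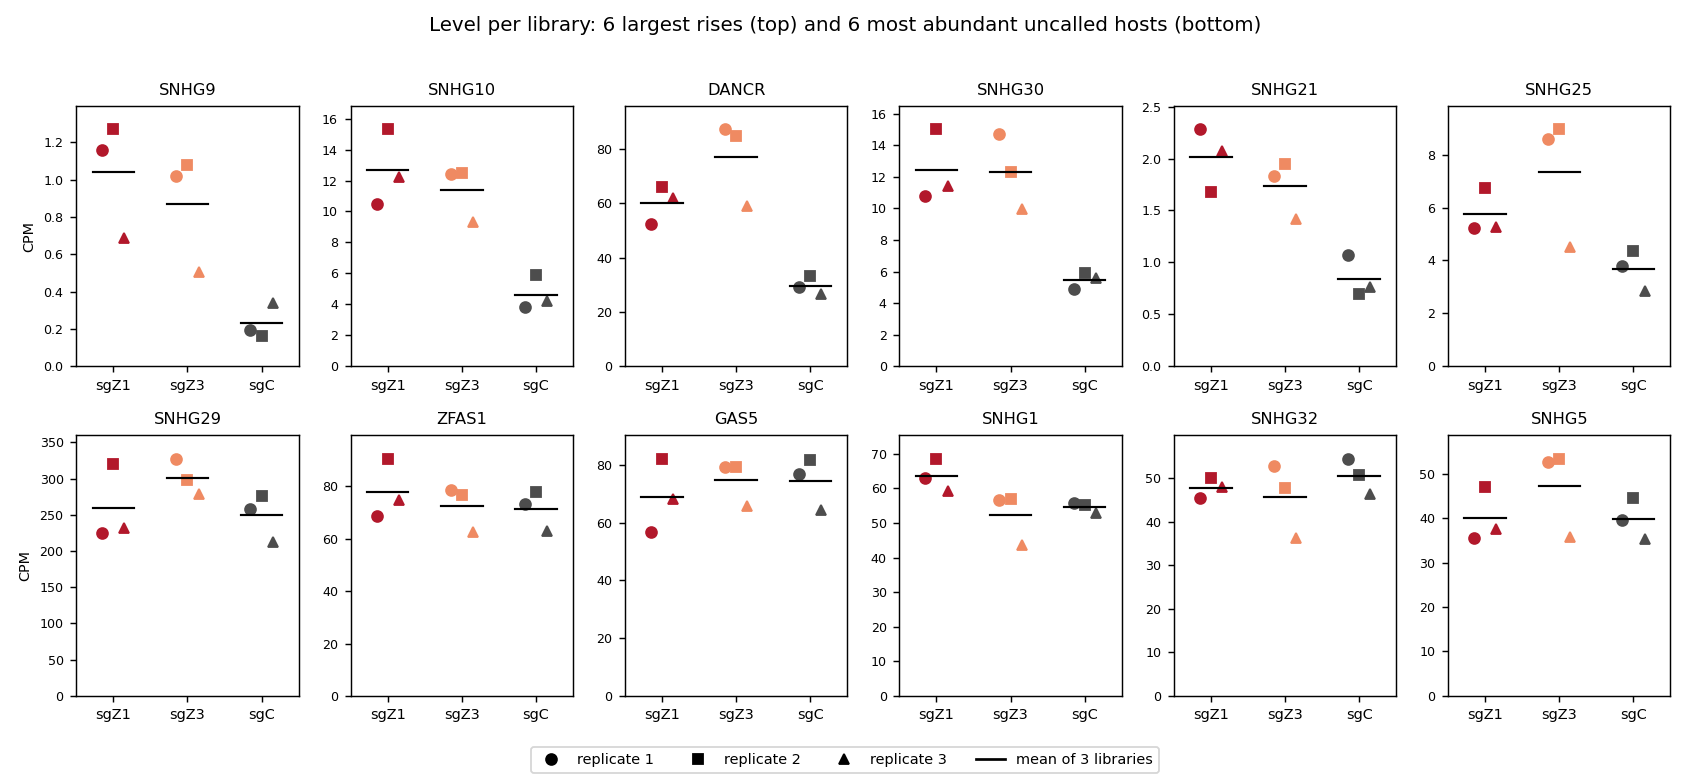
CPM in each of the 9 libraries, with points for replicates and a line at the mean of 3 libraries, for the 6 hosts with the highest log2 fold change over both guides (top) and the 6 most abundant hosts not called (bottom). In every top panel the sgZ1 and sgZ3 points lie above the sgC points, and in the bottom panels the groups overlap over both guides, as for GAS5 at 56.9 to 82.1 CPM in the ZNF692 libraries and 64.4 to 81.7 CPM in sgC.

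The hosts also differ in how many small RNAs they carry. Of 8 tested hosts with at least 3 small RNAs, 2 were higher over both guides (SNHG16 and SNHG17), with a median log2 fold change of 0.12. Of 21 hosts with 1 or 2 small RNAs, 12 were higher, with a median of 0.43. Neither set had a lower call, where 18.6% of all genes were called higher and 14.6% lower over both guides. The difference between the sets was not tested.

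In all, 4 hosts differed between the guides in the test of sgZ3 against sgZ1, 2 higher and 2 lower, where 28.6% of all genes were called (12.8% higher and 15.8% lower). SNHG17, host of 4 SNORA71 copies, stood at 29, 30.0 and 19.3 CPM in sgZ3 and 14.8, 17.1 and 16.9 CPM in sgZ1, against 13.9, 14 and 13.6 CPM in sgC. Control libraries were nearly identical, sgZ1 lay just above them and sgZ3 clearly so. The difference of sgZ3 from sgZ1 was 0.68 (SE 0.15, edgeR adjusted p = 0.0057), and the log2 fold change against sgC was 0.92 for sgZ3 (SE 0.15, adjusted p = 0.0014) and 0.23 for sgZ1 (SE 0.15, adjusted p = 0.30). SNHG18, host of SNORD123, stood at 13.5, 15.1 and 9.95 CPM in sgZ3 and 7.41, 8.11 and 7.69 CPM in sgZ1, against 8.91, 9.05 and 7.93 CPM in sgC. It was higher with sgZ3 than in either of the other groups, by 0.73 over sgZ1 (SE 0.15, edgeR adjusted p = 0.0044) and 0.57 over sgC (SE 0.15, adjusted p = 0.014). Over both guides it was not called (0.21, edgeR adjusted p = 0.25), but passed without sgZ3 replicate 3 (0.29, adjusted p = 0.044). Its call with sgZ3 against sgC was lost in 3 of 17 settings.

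SNHG16 went the other way. Given above, its level was lower in all sgZ3 than in all sgZ1 libraries, with a difference of -0.44 (SE 0.11, edgeR adjusted p = 0.010), while both groups were above sgC (0.33 for sgZ3, adjusted p = 0.035, and 0.76 for sgZ1, adjusted p = 0.00033). The sgZ3 call against sgC was lost in 8 of 17 settings. SNHG7, host of SNORA17A and SNORA17B, stood at 17.3, 19.5 and 13.9 CPM in sgZ3 and 25.1, 24.7 and 29.3 CPM in sgZ1, against 22.6, 23.2 and 18.7 CPM in sgC. The controls lay between the guides, and overlapped sgZ3. The difference of sgZ3 from sgZ1 was -0.64 (SE 0.14, edgeR adjusted p = 0.0054), and neither guide was called against sgC (-0.35 for sgZ3, adjusted p = 0.074, and 0.29 for sgZ1, adjusted p = 0.14). Without sgZ1 replicate 2 the sgZ3 difference from sgC passed (-0.39, edgeR adjusted p = 0.040). All 4 differences between guides passed in each of the 17 alternative settings. Without sgZ3 replicate 3, 9 hosts were called higher with sgZ3 than with sgZ1, without sgZ1 replicate 2 it was 4, and in 7 libraries 11. The share of all genes called higher rose as well, to 19.1%, 15.3% and 23.2% in those fits. All sgZ3 libraries lay above all sgZ1 libraries in 3 hosts, as in 17.2% of all genes, and below them in 3, as in 18.3% of all genes.

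**Figure D3:**
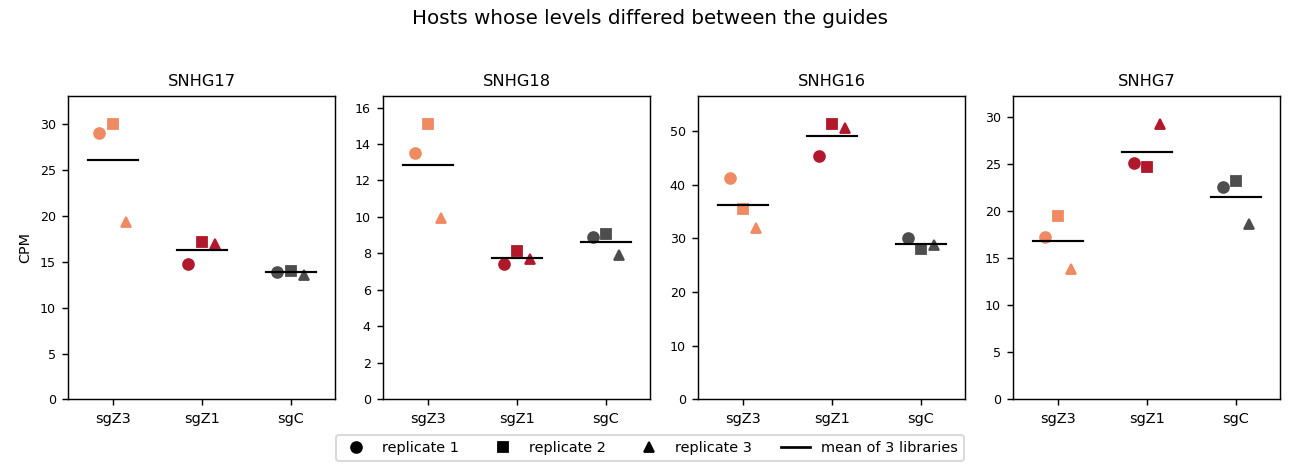
CPM per library of the 4 hosts whose level differed between sgZ3 and sgZ1, with points for replicates and a line at the mean of 3 libraries. SNHG17 and SNHG18 are highest in sgZ3 (29, 30.0 and 19.3 CPM for SNHG17), and SNHG16 and SNHG7 are highest in sgZ1 (45.3, 51.3 and 50.6 CPM for SNHG16).

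Replicates of a guide did not scatter independently from host to host. Within sgZ1, replicate 2 had the highest level in 24 of 30 hosts, where it was highest in 37.7% of all tested genes. Within sgZ3, replicate 3 had the lowest level in 24 of 30 hosts (38.7% of all genes), and within sgC replicate 2 was highest in 21 (34.8%). The sum of the 14 hosts called higher over both guides was 311, 392 and 340 CPM in sgZ1 and 408, 403 and 290 CPM in sgZ3, against 215, 244 and 203 CPM in sgC. These 14 were chosen by that contrast, so their gap is a description. The sum of the 16 other tested hosts was 601, 782 and 632 CPM in sgZ1 and 769, 742 and 618 CPM in sgZ3, against 676, 709 and 580 CPM in sgC. These groups overlapped in part, with 3 of 6 ZNF692 libraries above all controls and sgC replicate 3 below all ZNF692 libraries. Ribosomal protein mRNAs moved with the same libraries. The sum of 87 such genes was 45900, 54900 and 49500 CPM in sgZ1 and 66900, 60700 and 49100 CPM in sgZ3, against 46100, 50700 and 40600 CPM in sgC. The share of counts in genes with over 5 kb of exon ran the other way, at 48.9, 45.3 and 47.7% in sgZ1 and 43.1, 43.4 and 47.3% in sgZ3, against 48.6, 47.6 and 50.2% in sgC. The part of this library composition in the host levels was tested only as far as a fit with length and GC offsets goes, which called 14 hosts higher and 1 lower over both guides. These were not the same 14, since SNHG15 was lost (edgeR adjusted p = 0.056) and CYTOR gained (0.78, adjusted p = 0.0059). The median log2 fold change of the tested hosts was 0.36 in that fit and 0.43 in the main fit. Of all genes 20.6% were higher.

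**Figure D4:**
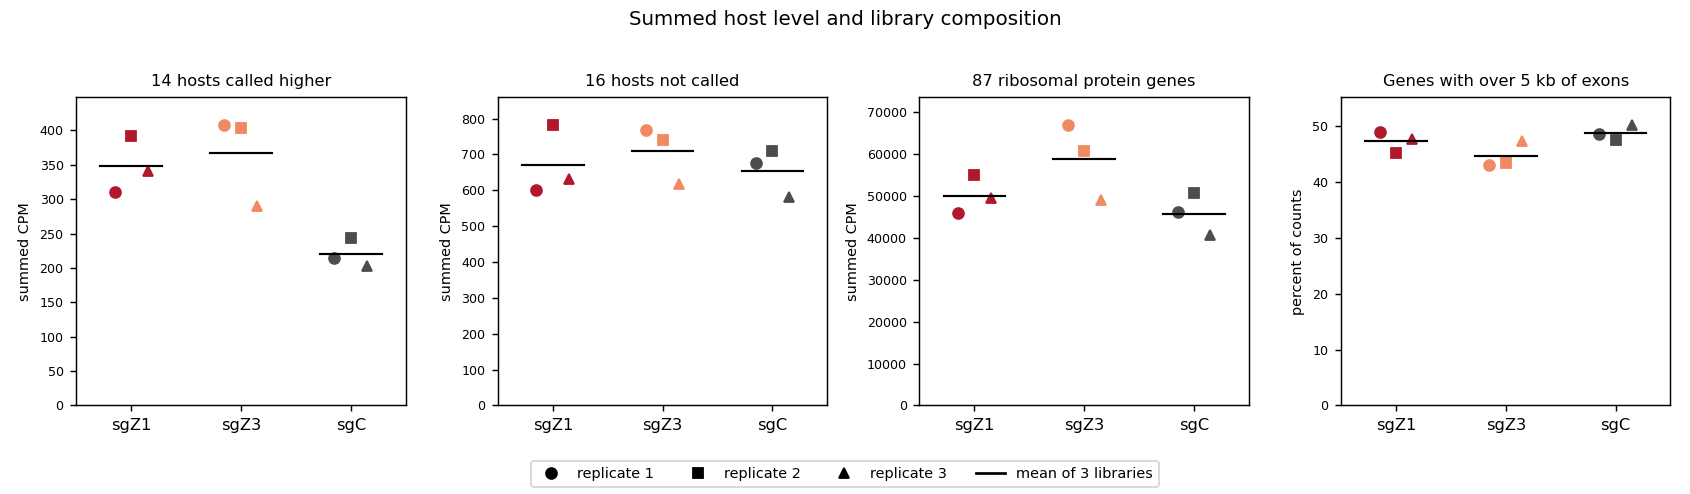
Summed CPM of the 14 hosts called higher over both guides, of the 16 other tested hosts and of 87 ribosomal protein genes, and the percent of counts in genes with over 5 kb of exon, for each library with a line at the mean of 3. The first sum is 290 CPM or more in every ZNF692 library and at most 244 CPM in sgC, while the other sums overlap between groups. The share overlaps between sgZ1 and sgC, but in sgZ3 it is at most 47.3%, under the lowest sgC value of 47.6%.

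Of the proteins that bind snoRNAs, the box C/D core proteins rose in 4 of 4 over both guides, with a median log2 fold change of 0.44. FBL, the methyltransferase fibrillarin, averaged 325 ± 14.5 CPM in sgZ1 and 323 ± 50.9 CPM in sgZ3, against 236 ± 19.2 CPM in sgC (SD, n = 3 each), a log2 fold change of 0.45 (SE 0.10, edgeR adjusted p = 0.0058). NOP56 (0.39), NOP58 (0.42) and SNU13 (0.57) rose as well. Of the 4 box H/ACA core proteins, DKC1, the pseudouridine synthase dyskerin, rose by 0.52 (SE 0.077, edgeR adjusted p = 0.00070), NHP2 by 0.61 and NOP10 by 0.58, while GAR1 was at 0.19 and did not pass (edgeR adjusted p = 0.24). Of 10 tested assembly factors 3 rose and 0 fell over both guides, the H/ACA assembly factor NAF1 (0.49) and the ATPases RUVBL2 (0.44) and RUVBL1 (0.61). With sgZ1 alone 5 were higher and 0 lower. With sgZ3 alone 3 were higher and 1 lower, RPAP3 (-0.45, edgeR adjusted p = 0.026). NOLC1 was higher with sgZ1 (0.71, edgeR adjusted p = 0.010) and not called with sgZ3 (0.03). The background share called higher is 18.6% over both guides, 15.5% with sgZ1 and 19.2% with sgZ3, as given above.

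Protein-coding genes that host snoRNAs were called higher over both guides in 15 of 48 tested (31.2%) and lower in 1, with a median log2 fold change of 0.23. With sgZ1 alone 7 were higher (14.6%, against 15.5% of all genes), and with sgZ3 alone 23 (47.9%, against 19.2%). The most strongly supported over both guides were DKC1, which also belongs to the core list, HSPA8, the constitutive chaperone (0.62), RCC1 (0.43) and NOP56, and the 1 lower gene was TAF1D (-0.27). DKC1, RCC1 and NOP56 were called with each guide, while HSPA8 was not called with sgZ1 (0.27, edgeR adjusted p = 0.081). Of the nonsense-mediated decay factors 4 of 18 (22.2%) were higher, DHX34 (1.04), EIF4A3 (0.54), RBM8A (0.32) and MAGOH (0.39), and 3 (16.7%) lower, NBAS (-0.34), PNRC2 (-0.25) and SMG1 (-0.46), the kinase that phosphorylates UPF1. These shares are near the 18.6% and 14.6% of all genes. Of 9 factors of cytoplasmic decay from the 5′ end, LSM1 rose (0.70) and XRN1, the exonuclease, fell (-0.52). Of 7 regulators of mRNAs with a 5′ pyrimidine tract, CNBP (0.26) and PABPC4 (0.26) rose over both guides and 0 fell. With sgZ1 alone 1 was higher (PABPC4) and 0 lower. With sgZ3 alone 1 was higher (CNBP) and 2 lower, LARP1 (-0.81, edgeR adjusted p = 0.031) and SSB (-0.38, adjusted p = 0.037). Long noncoding genes of interest in cancer that lie outside the host rule rose in 2 of 21, HCG18 (0.32) and PVT1 (0.48), and fell in 4, NORAD (-0.44), H19 (-0.69), TUG1 (-0.32) and LINC00467 (-0.43), with a median of 0.02. HCG18, NORAD and H19 were called with each guide. PVT1 was called with sgZ1 (0.93, edgeR adjusted p = 0.0012) and not with sgZ3 (0.02, adjusted p = 0.93). TUG1 was called with sgZ1 alone and LINC00467 with sgZ3 alone. The difference between these genes and the snoRNA hosts was not tested.

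Several hosts lie over or beside a gene on the other strand, and the strand setting of the authors' counting is not given in the sources used here, so reads of such pairs cannot be told apart where exons overlap. SNHG10 shares 391 exon bases with GLRX5, a mitochondrial glutaredoxin, which rose by 0.61 over both guides (SE 0.13, edgeR adjusted p = 0.0052). SNHG7 shares 1094 exon bases with DIPK1B, whose log2 fold change against sgC was 1.61 with sgZ1 (edgeR adjusted p = 0.0014) and -0.91 with sgZ3 (adjusted p = 0.066), the same order of guides as in SNHG7. SNHG6 shares 365 exon bases with MCMDC2, which fell by 0.79 (edgeR adjusted p = 0.024). SNHG4 shares 118 exon bases with SIL1, which was not called over both guides (0.07). SNHG21 shares 359 exon bases with FSD2, and SNHG16 has 2 neighbours on the other strand that carry only clone names, and none of the 3 neighbours was tested. On its own strand SNHG3 shares 242 exon bases with RCC1, which rose too, and SNHG4 shares 626 with MATR3, which was flat (-0.04). SNHG21 shares 768 of its 1053 exon bases with a clone-named gene on its own strand, which was not tested.

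Of the called hosts, 3 start within 1 kb of a tested gene on the other strand without exon overlap. TRAF7, starting 340 bases from SNHG19, rose by 0.42 over both guides (SE 0.087, edgeR adjusted p = 0.0040), yet was called with sgZ1 (0.66) and not with sgZ3 (0.18), where SNHG19 was called with sgZ3 and not with sgZ1. SEMA5A, starting 125 bases from SNHG18, was lower with sgZ1 (-0.66, edgeR adjusted p = 0.0027) and not called with sgZ3 (-0.10), the guide with which SNHG18 was higher. RPS2, starting 99 bases from SNHG9, stood at 0.16 without passing (edgeR adjusted p = 0.29), beside a rise of 1.97 in SNHG9. EPB41L4A, which shares 1659 exon bases with the uncalled EPB41L4A-AS1, fell by 0.74 over both guides (edgeR adjusted p = 0.016).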

How the data were processed

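Poly(A) RNA of 9 libraries was analysed, and 9 ribosomal RNA libraries of the same series were not used here. For sgC replicate 3 the labels conflict, since its description points to the ribosomal RNA table. It was used as poly(A) because its title matches a column of the poly(A) table and its molecule is given as poly(A) RNA. The authors deposited raw counts, whole numbers for each gene in each library. Builds hg38 and GRCh38 and the tools HTSeq, DESeq2, SAMtools 1.9 and STAR 2.5.2b stand in the submitters' processing notes without roles. Which annotation release and strand setting were used is not given in the sources used here.

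Counts were fitted in R 4.3.3 with edgeR 4.0.16 (limma 3.58.1) over all tested genes, with filterByExpr, TMM factors, robust quasi-likelihood and the group as the only term. Benjamini-Hochberg adjusted p-values cover all 14732 tested genes. The common biological coefficient of variation was 12.7%. Standard errors are the log2 fold change divided by the root of F. These steps were tested on simulated data. GENCODE 29 gave coordinates and exon lengths (99.2% of tested IDs matched), and RefSeq tables gave small RNA names and promoters. Every tested host is named, from each companion list up to 4 genes with the smallest adjusted p over both guides among those called, with genes of the rarer direction added, and neighbours on the other strand, of which 1 is not reported here. The members, lists and rules were chosen with earlier results of these data known. Genes on the same strand that share exons with a host (RCC1, MATR3, SNRPN) were added after their values were seen. So were the neighbours of hosts that were not called (UBE3A, EPB41L4A), GAR1, NOLC1, RPAP3, TAGLN and MSH6. The untested gene on the strand of SNHG21 was also added. Limits from a count of 0 cover counting error only. Alternatives were RLE, upper-quartile and total scaling, no low-count filter, DESeq2 1.42.0, the replicate number as a block, 7 libraries, each library left out and, added after seeing the data, gene length and GC offsets.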

Additional observations from a re-analysis of the deposited data

Results flagged for a closer look

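The test of sgZ3 against sgZ1 called 4 of 30 tested hosts, where 28.6% of all genes were called. Such differences include sgZ1 and cannot be told apart from a difference between lines. The log2 difference of sgZ3 from sgZ1 was 0.68 for SNHG17 and 0.73 for SNHG18, both higher with sgZ3. It was -0.44 for SNHG16 and -0.64 for SNHG7, both lower with sgZ3. Groups of 3 libraries are too small for the check of single deviating samples, which was not run.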

How the results depend on the processing

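Over both guides, 7 of the 14 calls (DANCR, SNHG10, SNHG16, SNHG17, SNHG21, SNHG30 and SNHG9) passed in all 17 alternative settings. So did 6 of the 8 calls with sgZ1 and 7 of the 14 with sgZ3, and no call reversed in any comparison. Leaving out 1 library at a time, the higher and lower counts ran from 7 to 16 and 0 to 1 over both guides, 6 to 13 and 0 to 1 for sgZ1, 8 to 17 and 0 to 1 for sgZ3, and 2 to 9 and 2 to 3 for sgZ3 against sgZ1. The share of all genes called higher over both guides ran from 8.96% to 22.0% in the same fits. In 7 libraries there were 2 lower hosts over both guides, 2 for sgZ1, 1 for sgZ3, and 11 higher for sgZ3 against sgZ1, where 23.2% of all genes were higher. With length and GC offsets there was 1 lower host over both guides (SNHG32), 3 for sgZ3 (SNHG32, SNHG7 and SNHG8) and 4 for sgZ3 against sgZ1. Upper-quartile factors and library totals alone each gave 1 lower host for sgZ3 (SNHG7). Without a low-count filter there was 1 lower for sgZ1 (EPB41L4A-AS1) and 4 higher for sgZ3 against sgZ1. Of the 28999 genes in that fit, 6.59% were higher for sgZ3 against sgZ1. The causes were not tested.

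The share of all calls over both guides that were higher was 56.0%, against 45.9% under upper-quartile scaling, 36.6% under unscaled totals, which shifted the median of all genes by -0.101 on the log2 scale (-0.155 for sgZ3), and 46.5% in 7 libraries. For sgZ3 it was 52.9%, 41.5% and 29.6% with TMM, upper-quartile and unscaled totals in turn. The hosts called higher numbered 12 with upper-quartile factors and 11 with totals over both guides, where 15.4% and 12.8% of all genes were higher.

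Groups share replicate numbers, which the titles do not say pair cultures, so the main fit did not pair them. Deviations of same-numbered libraries correlated at -0.129 to 0.341, and those of differently numbered libraries at -0.35 to 0.293. Same-numbered pairs with an sgC library all lay above 0 (0.009 to 0.341), and those of sgZ1 with sgZ3 ran from -0.129 to 0.034. A shared effect of the replicate number was not tested. With the replicate number as a block, 15 hosts were higher and 0 lower over both guides, 11 and 1 (EPB41L4A-AS1) for sgZ1, 16 and 0 for sgZ3, and 3 and 3 for sgZ3 against sgZ1. In the same order, 20.2%, 16.9%, 20.8% and 15.4% of all genes were higher in that fit. Depth limits SNHG9 most, with 3 to 8 counts per control library.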
